A study of Homo sapiens with 4 samples.

Results

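NKX2-1 and 5 of its neighbours in the chromosome band 14q13, SFTA3, NKX2-8, PAX9, MBIP and SLC25A21, were read in a pair of small cell lung cancer lines with and without siRNA against TTF-1, the protein that NKX2-1 encodes. The probe sets were all those that the annotation of the array pairs with 1 of these 6 symbols, 8 of the 54613 probe sets that are not array controls, and 6 of the 19775 genes so paired. NKX2-1 and PAX9 had 2 probe sets each and the other genes 1 each. After siTTF-1 NKX2-1 was lower in both lines on both of its probe sets, while none of the 5 neighbours was lower by as much in either line. Lu139 gave higher values than NCI-H209 for NKX2-1, SFTA3, MBIP and PAX9, and SLC25A21 was read well above the expression limit in NCI-H209 alone. The PAX9 values were too low for its expression to be read from them.

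The series asks what TTF-1 controls in such tumour cells. The groups were Lu139 cells given siRNA to TTF-1 by electroporation (siTTF-1), Lu139 cells given control siRNA (siNTC), NCI-H209 cells with siTTF-1 and NCI-H209 cells with siNTC, each measured on 1 Affymetrix array. Lu139 and NCI-H209 are established human cell lines, so each line stands for 1 tumour. All cells, controls included, had been electroporated, and no source used here gives the siRNA sequences or the time of harvest.

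NKX2-1 is a homeodomain transcription factor that specifies lung and thyroid in the embryo and stays active in both organs, and pathologists use its protein as a marker of lung adenocarcinoma and small cell lung cancer. Its locus is amplified in some lung cancers, often together with the homeobox gene NKX2-8 and the paired-box gene PAX9. SFTA3 is a long noncoding RNA whose mouse counterpart, NANCI, lies beside Nkx2-1 and takes part in holding its level in the mouse lung. MBIP was named as an inhibitor of the kinase MAP3K12 and is a subunit of the ATAC histone acetyltransferase complex, and SLC25A21 carries 2-oxoadipate and related dicarboxylates across the inner mitochondrial membrane.

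In the RefSeq gene table the genes follow each other in the order MBIP, SFTA3, NKX2-1, NKX2-8, PAX9 and SLC25A21. SFTA3 and NKX2-1 overlap, both on the minus strand, and the antisense RNA NKX2-1-AS1 overlaps both from the plus strand. PAX9, on the plus strand, overlaps SLC25A21, on the minus strand. RefSeq promoter windows, each 250 bases before to 50 bases after a start site, were found for all 6 genes, 8 distinct windows in all. One of these windows belongs to NKX2-1 and SFTA3 alike, so the start site from which 1 of the NKX2-1 transcripts is read is also a start site of SFTA3. It is printed first because it belongs to both genes, whose probe sets gave different values after siTTF-1. Each of these genes has another window too, and from which start site the measured transcripts came was not tested. The upstream NKX2-1 window and that of SLC25A21, the gene with the widest gap between the lines, follow. All are from RefSeq on GRCh38.p14, 5′ to 3′ on the minus strand, from chr14:36519507-36519806, chr14:36520183-36520482 and chr14:37172557-37172856. Capitals mark CAAGTG, the core bound by NK-2 homeodomain proteins, and CTCAAG, a core described for TTF-1, on either strand; the motifs can overlap.
NKX2-1 and SFTA3, shared window: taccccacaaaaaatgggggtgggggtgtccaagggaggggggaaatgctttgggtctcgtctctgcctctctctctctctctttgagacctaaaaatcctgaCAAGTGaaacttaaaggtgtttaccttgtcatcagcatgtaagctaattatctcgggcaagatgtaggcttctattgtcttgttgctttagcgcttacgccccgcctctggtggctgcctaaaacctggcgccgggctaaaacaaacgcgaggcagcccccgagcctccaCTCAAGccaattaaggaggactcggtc
NKX2-1, upstream window: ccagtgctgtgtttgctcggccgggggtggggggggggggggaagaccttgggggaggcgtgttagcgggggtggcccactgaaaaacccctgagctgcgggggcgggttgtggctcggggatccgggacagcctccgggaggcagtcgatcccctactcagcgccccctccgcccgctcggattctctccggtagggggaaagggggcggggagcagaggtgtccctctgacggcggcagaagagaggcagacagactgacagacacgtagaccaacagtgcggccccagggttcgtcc
SLC25A21: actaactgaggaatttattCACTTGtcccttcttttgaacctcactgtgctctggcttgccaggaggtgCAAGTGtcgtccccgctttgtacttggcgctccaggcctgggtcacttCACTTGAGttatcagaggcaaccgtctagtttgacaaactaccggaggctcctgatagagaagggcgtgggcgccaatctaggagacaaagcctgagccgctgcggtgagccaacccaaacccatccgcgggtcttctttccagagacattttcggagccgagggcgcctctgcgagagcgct

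The shared window held 1 CAAGTG, with its first base 147 bases before the start site, and 1 CTCAAG, with its first base at position 24 after it. Neither motif was found in the upstream NKX2-1 window. SLC25A21 had 3 matches to CAAGTG, whose first bases lay 231, 181 and 133 bases before the start site, and the last of these overlapped a CTCAAG on the same strand as itself. Windows of PAX9 and of a second start site of SFTA3 held 1 CTCAAG each, and those of NKX2-8 and MBIP held neither motif. Of the 8 windows 2 held CAAGTG, against 11.5% of 34943 windows of the same length, and 4 held CTCAAG, against 12.4%. A match is a run of letters and no measurement of binding.

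Values are intensities as deposited, on a linear scale, and differences are of log2(intensity + 18.7), a scale that understates the change of dim probe sets. A probe set was tested where its mean over the 4 arrays exceeded the expression limit, an intensity of 36.9, and 32768 probe sets did, all 8 of the region among them. In Lu139 alone SLC25A21 was below that limit. Over all tested probe sets the median log2 difference after siTTF-1 was 0.02 in Lu139 and 0.01 in NCI-H209. Within a line each group has 1 array, so a difference within a line has no replicate check, and the siRNA effect was tested with limma over the pair of lines. With so few arrays the precision is low.

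Of the neuroendocrine markers, which define most small cell lung cancers, INSM1 read 4742 and 4750 in Lu139 and 7383 and 9183 in NCI-H209 (siTTF-1 and siNTC), and CHGA read 2415 and 1952 in Lu139 and 3814 and 3403 in NCI-H209. Of 7 such markers 6 had a probe set and were above the expression limit, with SYP the dimmest, from 77.2 to 112. The 5 probe sets of PTPRC, the defining marker of leukocytes, read between 3.38 and 11.3 on the 4 arrays. The leukocyte genes CD3E and CD14 read higher, from 41.9 to 88.6 on the 4 arrays. Intensities in that range were therefore also given by genes of cells that are not in these cultures. NKX2-8 and both PAX9 probe sets lay in or within a few units of it, so no expression of these genes can be read from their intensity alone. On the brightest of its 5 probe sets the fibroblast gene COL1A1 read from 259 to 362. Its other probe sets read no more than 70.5, and whether the cultures express it was not tested. SLC25A21 in NCI-H209, at 219 and 204, and some NKX2-1 values lay below those brightest COL1A1 values. With COL1A1 expression untested, intensity alone is not taken here to establish expression of SLC25A21 or NKX2-1 at such values. Exactly equal intensities on both arrays of a line were found for 4.04% of the probe sets in Lu139 and 4.42% in NCI-H209, against 0 probe sets between the lines.

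**Figure D1:**
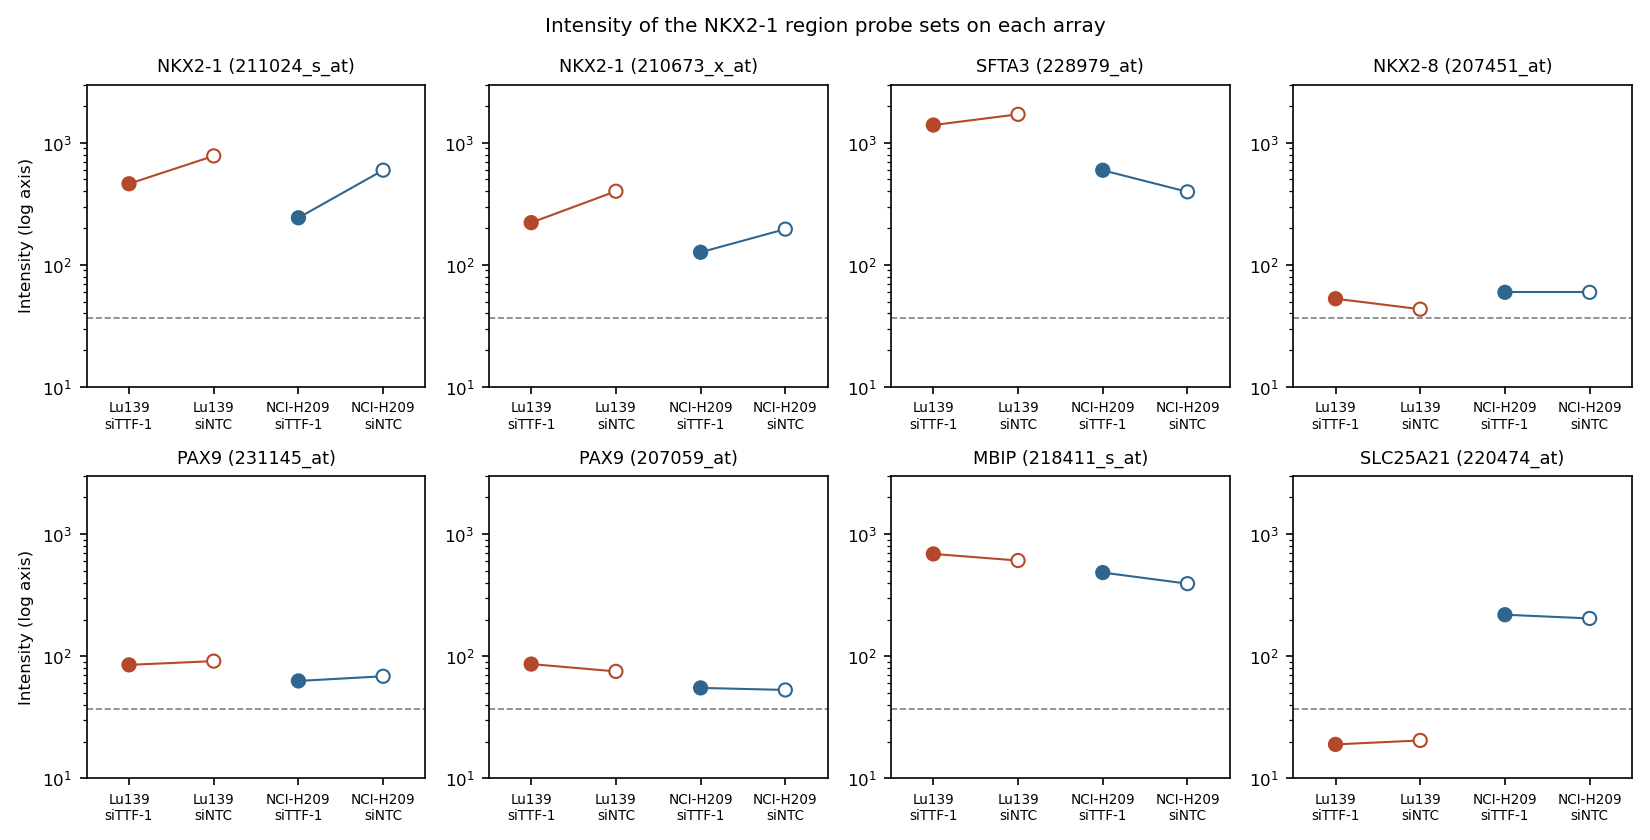
Intensity (log axis) of each of the 8 probe sets on the 4 arrays, 1 point per array, with siTTF-1 as filled and siNTC as open points and a dashed line at the expression limit of 36.9. Both NKX2-1 panels have the filled point below the open one in each line, with SLC25A21 at 20.4 or less in Lu139 and at 204 or more in NCI-H209.

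The targeted gene was lower after siTTF-1 on both probe sets. On 211024_s_at NKX2-1 read 461 after siTTF-1, against 780 with siNTC, in Lu139, and 243 against 596 in NCI-H209. On 210673_x_at it read 221 against 400 in Lu139 and 127 against 196 in NCI-H209. On 211024_s_at both siTTF-1 arrays were below both siNTC arrays, while on 210673_x_at the Lu139 array with siTTF-1 lay above the NCI-H209 array with siNTC. Relative to siNTC, 59.1% of the intensity remained in Lu139 and 40.7% in NCI-H209 on 211024_s_at, and 55.3% in Lu139 and 64.6% in NCI-H209 on 210673_x_at.

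The probe sets thus put the lines in opposite order. By 211024_s_at the log2 difference was -0.74 in Lu139 and -1.23 in NCI-H209, a mean of -0.98 (SD 0.35, n = 2 lines). By 210673_x_at it was -0.80 and -0.56, a mean of -0.68 (SD 0.17, n = 2 lines). Which line had the deeper decrease could not be tested, with 1 array per group. The suffix _x_at marks probes that may also bind other transcripts. Among the tested probe sets these means ranked 51 and 246 from the lowest of 32768.

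In limma the mean difference of NKX2-1 had a 95% interval from -1.32 to -0.65 on 211024_s_at and from -0.96 to -0.41 on 210673_x_at. Neither passed over all probe sets, with limma adjusted p of 0.114 and 0.121. At an adjusted p under 0.05 limma called 0% of all probe sets lower and 0% higher, and at an unadjusted p under 0.05 it called 9.29% lower and 5.88% higher. Among the 8 probe sets of the region, 0 passed with adjustment, and 2, both of NKX2-1, were lower at an unadjusted p under 0.05. At least 2-fold lower in Lu139 were 0 of the 7 probe sets above the limit there, against 0.166% of all probe sets, and in NCI-H209 1 of 8, NKX2-1 on 211024_s_at, against 0.653%. At least 2-fold higher were 0 of them in either line, against 0.00638% of all probe sets in Lu139 and 0.147% in NCI-H209. By the mean of the probe sets of a gene NKX2-1 was not 2-fold lower in NCI-H209 either, with a log2 difference of -0.90.

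SFTA3, which shares a start site with NKX2-1, had opposite signs in the lines. Its probe set 228979_at read 1396 after siTTF-1, against 1708 with siNTC, in Lu139, and 595 against 396 in NCI-H209. Both Lu139 arrays were above both NCI-H209 arrays. The log2 difference was -0.29 in Lu139 and 0.57 in NCI-H209, where it stood at the 98.8th percentile of the probe sets above the limit. The mean of 0.14 (SD 0.60, n = 2 lines) had a limma 95% interval from -0.31 to 0.59 and a limma adjusted p of 0.749. Whether the siRNA effect on SFTA3 differed between the lines could not be tested.

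The antisense RNA NKX2-1-AS1, on the other strand, was added to the description after its values were seen. Its probe set 236579_at read 126 after siTTF-1, against 87.5 with siNTC, in Lu139, and 39.7 against 36.3 in NCI-H209. It was higher with siTTF-1 in both lines, with log2 differences of 0.45 and 0.09, and in NCI-H209 both arrays lay near the expression limit. The mean of 0.27 (SD 0.26, n = 2 lines) had a limma adjusted p of 0.336.

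NKX2-8 encodes a homeodomain protein of the same NK-2 class as NKX2-1. On 207451_at it read 52.7 after siTTF-1, against 43.3 with siNTC, in Lu139, and exactly the same value, 59.5, on both NCI-H209 arrays. The log2 differences were 0.20 and 0.00, a mean of 0.10 with a limma 95% interval from -0.13 to 0.33.

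PAX9, a transcription factor of tooth, palate and pharyngeal pouch development, was read by a pair of probe sets with opposite signs. On 231145_at it read 85.0 after siTTF-1, against 91.3 with siNTC, in Lu139, and 62.8 against 68.6 in NCI-H209, a mean log2 difference of -0.09 (limma 95% interval from -0.32 to 0.13). On 207059_at it read 86.3 against 75.2 and 55.1 against 53.0, a mean of 0.10 (interval from -0.13 to 0.33). Both intervals include 0.

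Of the 5 neighbours, antisense RNAs aside, MBIP had the largest mean difference. Its probe set 218411_s_at read 690 after siTTF-1, against 609 with siNTC, in Lu139, and 485 against 394 in NCI-H209. Within each line the siTTF-1 array was the higher one. The log2 differences were 0.17 and 0.29, a mean of 0.23 (SD 0.08, n = 2 lines), with a limma 95% interval from -0.02 to 0.49 and a limma adjusted p of 0.36.

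SLC25A21 on 220474_at read 19.0 after siTTF-1, against 20.4 with siNTC, in Lu139, and 219 against 204 in NCI-H209. The log2 differences, siTTF-1 over siNTC, were -0.06 in Lu139, where both arrays were below the expression limit, and 0.09 in NCI-H209, and the limma 95% interval of the mean, -0.21 to 0.25, includes 0. Its antisense neighbour SLC25A21-AS1, also added after its values were seen, read 35.4 against 36.4 in Lu139 and 81.3 against 90.6 in NCI-H209.

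Over the 8 probe sets 3 were lower in both lines, against 27.6% of all tested probe sets, and 2 were higher in both, against 35.1%. These 3 were the probe sets of NKX2-1 and 231145_at of PAX9. A further 2 had opposite signs and 1 was equal in a line.

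**Figure D2:**
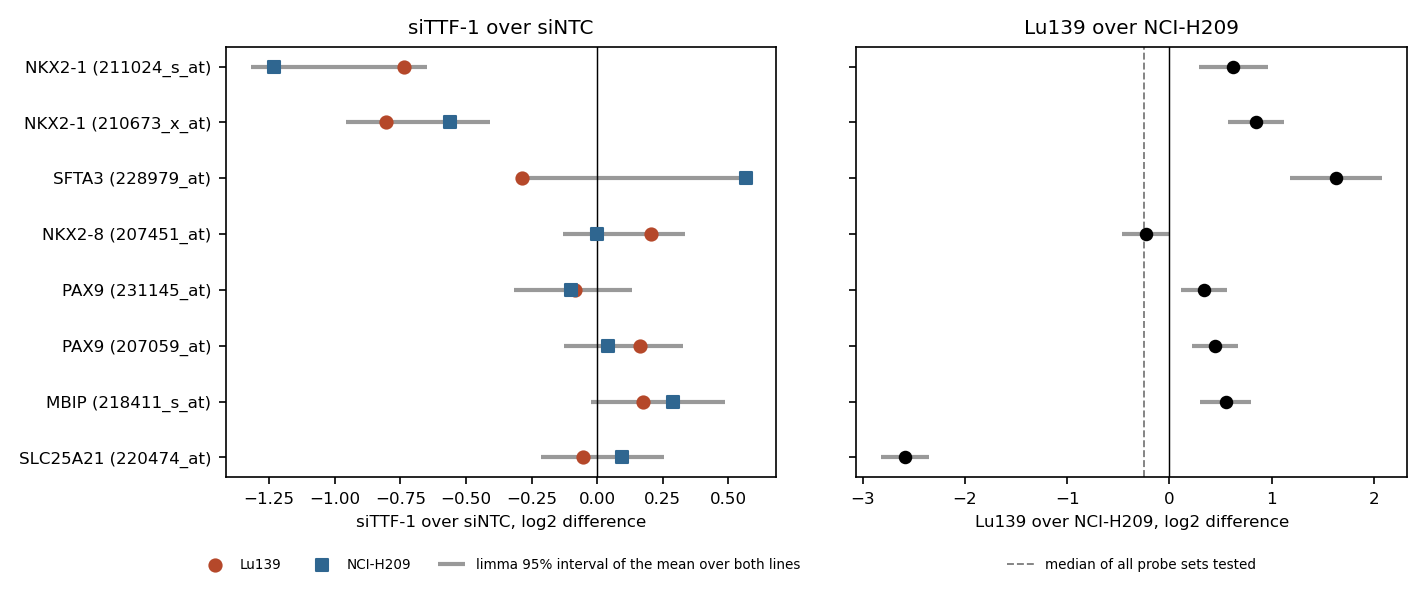
Log2 differences of the 8 probe sets, siTTF-1 over siNTC on the left (points for Lu139 and NCI-H209, grey bars the limma 95% interval of their mean) and Lu139 over NCI-H209 on the right (points with the limma 95% interval, dashed line at the median of all tested probe sets, -0.25). The intervals of NKX2-1 alone exclude 0 on the left, and SLC25A21, plotted at its measured intensities, is lowest on the right.

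Levels were next compared between the lines with the line term of the same fit. The values may have been scaled for each line apart, and over all tested probe sets the median difference, Lu139 over NCI-H209, was -0.25 on the log2 scale. The limma test called 19.2% of all probe sets higher in Lu139 and 48.8% lower, so a call by itself says little. After quantile normalization over the 4 arrays, which put the median difference at 0.05, these shares were 35.7% and 31.2%, and the called members kept their direction. Its p-values measure the spread among these 4 arrays, which may be technical. Of the 8 probe sets of the region, 6 were higher in Lu139, 1 was lower and 1 did not pass.

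NKX2-1 was higher in Lu139 by 0.63 on 211024_s_at (limma 95% interval from 0.29 to 0.96, adjusted p = 0.00607) and by 0.84 on 210673_x_at (from 0.57 to 1.12, adjusted p = 5.05e-04). The ratio of intensities, Lu139 over NCI-H209, was 1.90 in siTTF-1 cells and 1.31 in siNTC cells on 211024_s_at, and 1.75 in siTTF-1 cells and 2.04 in siNTC cells on 210673_x_at. These are ratios of single arrays.

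SFTA3 was the member furthest above NCI-H209 in Lu139, by 1.63 (interval from 1.18 to 2.08, limma adjusted p = 2.16e-04), at the 98.2nd percentile of all tested probe sets. The ratio of intensities was 2.35 in siTTF-1 cells and 4.31 in siNTC cells. NKX2-1-AS1 was also higher in Lu139, by 1.13 (limma adjusted p = 1.14e-04).

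MBIP was higher in Lu139 by 0.55 (limma adjusted p = 0.00303), and PAX9 by 0.34 and 0.45 on its 2 probe sets (limma adjusted p of 0.0151 and 0.00455). NKX2-8 had -0.23 (limma adjusted p = 0.0702), the same as the median of all probe sets within 0.02. Measured from that median, the members that were higher in Lu139 stood 0.59 to 1.88 above it.

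SLC25A21 went the other way. Where both arrays of a line were below the expression limit, the gap is given as a bound, the geometric mean intensity of the other line over the limit of 36.9. By this bound SLC25A21 was at least 5.73-fold lower in Lu139 (limma adjusted p = 1.78e-06 at the measured intensities). SLC25A21-AS1, which overlaps SLC25A21, was at least 2.32-fold lower in Lu139 (limma adjusted p = 9.87e-05). PAX9, which overlaps SLC25A21 as well, had the opposite direction, but at intensities from which its expression cannot be read.

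Genes on either side of the region were set beside it, 13 in all, of which 11 had a probe set and 9 passed the expression limit on their brightest one. In siTTF-1 cells 2 of these 9 were lower in both lines and 3 higher, against 26.9% and 37.3% of the 14553 genes tested, and limma called 0 of them with adjustment and 2 without, against 0% of genes with adjustment and, without it, 9.25% lower and 7.23% higher. Their median log2 differences were -0.00 in Lu139 and 0.07 in NCI-H209, against 0.03 and 0.01 over all genes tested. The pair with an unadjusted p under 0.05 were PRORP, a subunit of mitochondrial RNase P (-0.10 in Lu139 and -0.38 in NCI-H209), and SEC23A, a coat protein of vesicles leaving the endoplasmic reticulum (0.20 and 0.96). The other probe set of SEC23A had -0.01 in Lu139 and 0.44 in NCI-H209.

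INSM2, a zinc finger gene related to INSM1, read 270 after siTTF-1, against 410 with siNTC, in Lu139, and 27.6 against 25.4 in NCI-H209. FOXA1, a forkhead factor that works with NKX2-1 in lung epithelium, read 736 against 718 in Lu139 and 278 against 384 in NCI-H209. Between the lines the flanks ran both ways. INSM2, below the limit in NCI-H209, was at least 9.02-fold higher in Lu139, and FOXA1 was higher by 1.11 on the log2 scale. PRORP, below the limit in Lu139, was at least 1.79-fold lower there, and the other lower genes had log2 differences of -1.27 (MIPOL1), -0.90 (RALGAPA1) and -0.62 (NFKBIA), all with a limma adjusted p under 0.05 among genes, where 18.7% of genes were called higher and 51.7% lower. Along the region the brightest probe sets of MBIP, SFTA3, NKX2-1 and PAX9 were higher in Lu139. NKX2-8, which lies between NKX2-1 and PAX9, had -0.23 and did not pass. RALGAPA1 on one side and SLC25A21 and MIPOL1 on the other were lower. Another RALGAPA1 probe set, below the limit in NCI-H209, went the other way and was at least 1.60-fold higher in Lu139. BRMS1L, which lies between RALGAPA1 and MBIP, had no probe set. NKX2-8 and PAX9 read in or near the range of CD3E and CD14.

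**Figure D3:**
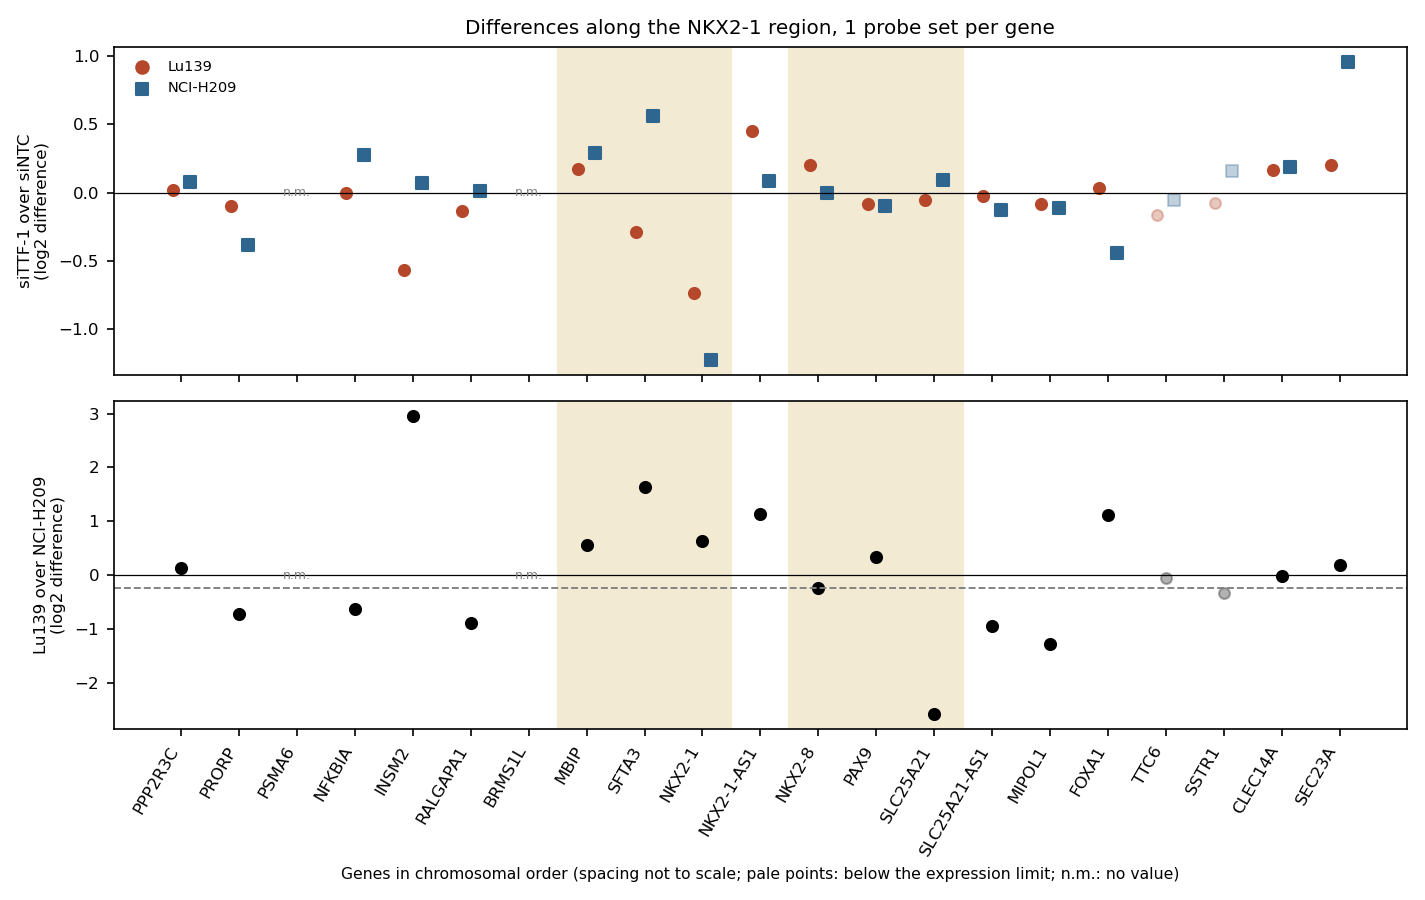
Log2 differences of 1 probe set per gene in chromosomal order (spacing not to scale), siTTF-1 over siNTC in each line above and Lu139 over NCI-H209 below, with the 6 genes of the region shaded, genes below the limit pale and a dashed line at the median of all tested probe sets. NKX2-1 is the lowest gene of the stretch after siTTF-1 in both lines, and between the lines SLC25A21 is lowest and INSM2 highest, both plotted at measured intensities although each is below the limit in a line.

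Gene lists related to the members were described in the same way, by counts over the brightest probe set of each gene and without a test of the list. Their counts read against all genes tested, of which 26.9% were lower and 37.3% higher in both lines, 9.25% lower and 7.23% higher at an unadjusted p under 0.05, and 18.7% called higher and 51.7% called lower in Lu139. Of 10 other NK homeobox genes 7 had a probe set, and 4 of these were above the limit. NKX2-2, a neural and endocrine factor, read 19.2 after siTTF-1, against 12.0 with siNTC, in Lu139, and 365 against 479 in NCI-H209, and was thus at least 11.3-fold lower in Lu139, where it was below the limit (limma adjusted p = 1.87e-06 over genes at the measured intensities). NKX2-5, the cardiac member, read 299 against 318 in Lu139 and 205 against 212 in NCI-H209.

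All 8 other PAX genes had a probe set above the limit, and after siTTF-1 1 was lower and 5 higher in both lines, against 26.9% and 37.3% of all genes. Of the higher ones PAX2, PAX4, PAX6 and PAX7 read from 32.0 to 99.9 on the 4 arrays, in or near the range of CD3E and CD14. PAX2 and PAX6 were on average below the limit in Lu139. No expression of these genes can be read from such intensities alone. The lower one was PAX5, a B cell factor that is also found in small cell lung cancer (-0.20 in Lu139 and -0.40 in NCI-H209). The other PAX5 probe set, which read from 38.2 to 51.8, went the other way, with 0.07 in Lu139 and 0.17 in NCI-H209. PAX8, the thyroid and kidney factor that acts with NKX2-1 in thyroid, had 0.25 and 0.13 on its brightest of 8 probe sets. None of its other tested probe sets was higher in both lines. Those ran from -0.23 to 0.25 in Lu139 and from -0.23 to 0.16 in NCI-H209. PAX3, a factor of neural crest and muscle precursors, read 3356 after siTTF-1, against 3437 with siNTC, in Lu139, and no more than 14.4 on either NCI-H209 array. It was at least 92.0-fold higher in Lu139 on that probe set, and its other 3 probe sets were also brighter there.

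Partners of MBIP, the subunits of the ATAC complex and the kinases that MBIP was named for, had 13 of 14 genes above the limit, 5 lower and 4 higher in both lines. With siTTF-1 4 of them were lower at an unadjusted limma p under 0.05, against 9.25% of all genes, 1 was higher, against 7.23%, and 0 passed with adjustment. The lower ones were the acetyltransferase gene KAT2B (-0.49 in Lu139 and -0.59 in NCI-H209), TADA3 (-0.29 and -0.66), YEATS2 (-0.22 and -0.47) and DR1 (-0.24 and -0.57). WDR5, a subunit shared with other chromatin complexes, had 0.13 and 0.38. Other probe sets differed for 3 of these genes. TADA3 had 0.05 and -0.04 on its other probe set, and YEATS2 was higher in both lines on its other one, by 0.24 and 0.18. DR1 was not lower on each of its 8 probe sets, whose values in NCI-H209 ran from -0.68 to 0.14.

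Around SLC25A21, enzymes of lysine and tryptophan breakdown that meet at 2-oxoadipate had 8 of 9 genes above the limit, 3 lower and 3 higher in both lines. DHTKD1, the 2-oxoadipate dehydrogenase subunit, read 235 after siTTF-1, against 286 with siNTC, in Lu139, and 420 against 830 in NCI-H209 (log2 differences -0.27 and -0.95), and its other probe set had -0.26 and -0.90. AASS, which begins lysine breakdown, had -0.18 in Lu139, where it was below the limit, and -0.38 in NCI-H209. Its other probe set had -0.19 and -0.64. AADAT, which makes 2-oxoadipate, had -0.17 and -0.31. The 3 genes higher in both lines were DLST (0.19 and 0.06), KYNU (0.24 and 0.06) and HAAO (0.04 and 0.04). None passed limma with adjustment, and DHTKD1 and AASS were under 0.05 without it. Between the lines limma called 4 of the 8 lower in Lu139, against 51.7% of all genes, and 2 higher, GCDH and ALDH7A1, against 18.7%.

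Factors that work with NKX2-1 had 8 of 9 genes above the limit, 4 lower and 2 higher in both lines. NFIB, a nuclear factor I gene of lung development, is given by the brightest of its 9 probe sets. On that one it read 476 after siTTF-1, against 701 with siNTC, in Lu139, and 374 against 799 in NCI-H209 (limma adjusted p = 0.107 over genes). CEBPA, a factor of alveolar differentiation, read 142 against 109 in Lu139 and 44.3 against 38.7 in NCI-H209. FOXA2 had 0.20 in Lu139 and -0.33 in NCI-H209 on its brightest probe set. Another had 0.05 in Lu139 and -0.44 in NCI-H209, and the dimmest, below the limit in Lu139, had 0.04 in each line.

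**Figure D4:**
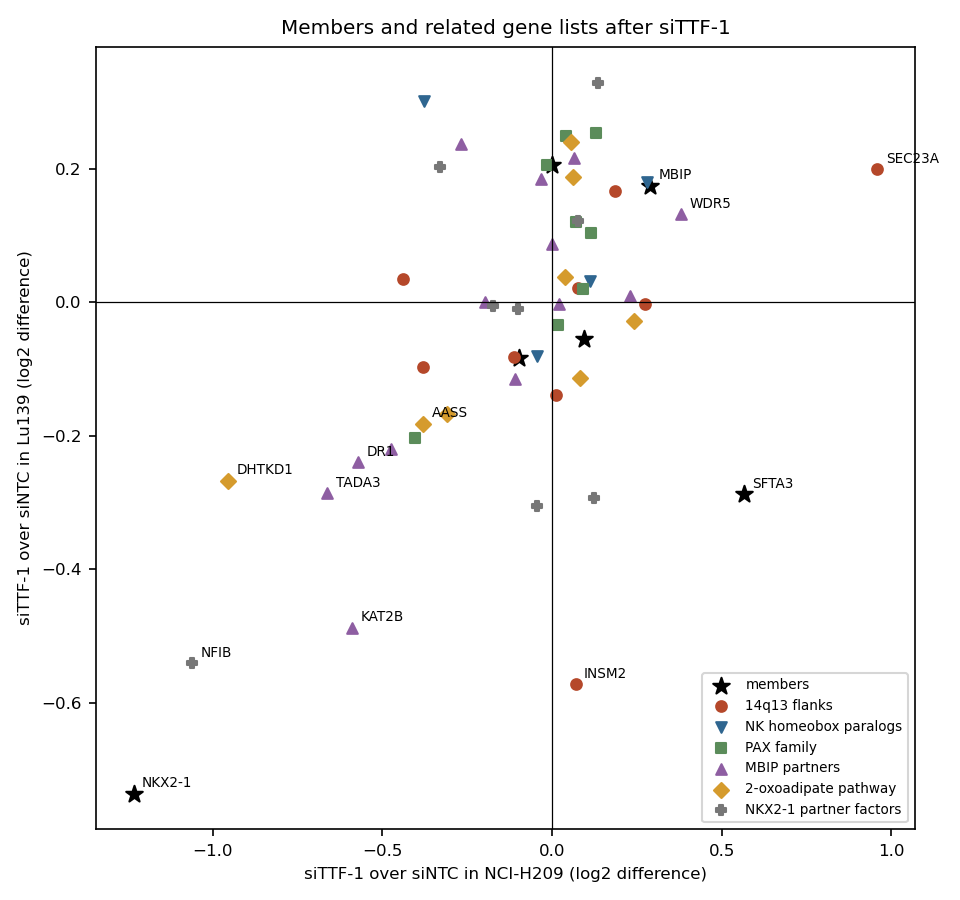
Log2 difference after siTTF-1 in NCI-H209 (horizontal) and Lu139 (vertical) for the brightest probe set of each member and of each gene of the related lists above the expression limit. NKX2-1 lies lowest at -1.23 and -0.74, NFIB nearest to it at -1.06 and -0.54, and SFTA3 apart at the lower right at 0.57 and -0.29.

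The genes whose profile over the 4 arrays was most like that of NKX2-1 were found by the root mean square difference of log2 values, each taken from its own mean. For 211024_s_at these were TMOD2, an actin filament capping gene (0.06), TCAF1 (0.07), the centriole gene CCP110 (0.08), NFIB (0.10) and LCORL (0.11). For 210673_x_at they were SIMC1P1 (0.05), the guanine exchange factor gene KALRN (0.06), CCDC50 (0.06), the thyroid hormone receptor gene THRA (0.08) and GLMP (0.08). The lists share no gene, and the 2 probe sets of NKX2-1 differed from each other by 0.26 on this measure. Over 4 arrays such a likeness is a description. TMOD2 read 376 after siTTF-1, against 577 with siNTC, in Lu139, and 197 against 459 in NCI-H209.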

How the data were processed

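Affymetrix arrays were hybridised with RNA of the 4 samples. What the authors deposited is 1 linear intensity per probe set, from 3.03 to 26148, and the submitters' processing notes name Affymetrix Expression Console. Its version and the summarisation and scaling used are not stated in them. The median intensity was 49.6 and 48.4 in Lu139 (siTTF-1 and siNTC) and 57.7 and 56.6 in NCI-H209.

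Of 54675 probe sets 62 controls were left out, 41091 had 1 gene symbol in the annotation, 1801 several and 11721 none, and symbols were updated by gene identifier for 41037. Intensities were taken as log2(value + 18.7), the 25th percentile as pseudocount, with an expression limit at the 40th percentile of the probe sets' means. limma (version 3.58.1, R 4.3.3) fitted terms for line and siRNA per probe set, with a variance trend, 1 residual and 5.97 prior degrees of freedom, two-sided tests and Benjamini-Hochberg adjustment over 32768 probe sets. For gene lists the fit was repeated on 14553 genes, each by its probe set with the highest mean. With 1 residual degree of freedom the prior is estimated with little precision, and the p-values with it. Nothing says that the arrays of a line came from separate cultures, so p-values measure only the spread between these samples, which may be technical. Tested on simulated data for the siRNA term, the fit recovered the simulated fold sizes but made more false calls than its threshold allows. Adjusted p-values, those of the line term included, may therefore be too small. An exact permutation test over samples could not pass its threshold with 2 lines and was not run.

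The members, lists, motifs and thresholds were chosen with earlier results of these data known. The rule for named genes took the members, the related lists and the 5 genes per NKX2-1 probe set with the most similar profile, and not all are named. Of the marker lists, basal, fibroblast, thyroid and alveolar genes are given in the closing section. Genes without a probe set of 1 symbol are not analysed here. Plots used Python 3.11.15 and matplotlib 3.10.9. Alternatives changed the pseudocount, the limit, the normalization, the variance trend, the line term and the value per gene.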

Additional observations from a re-analysis of the deposited data

Results flagged for a closer look

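SFTA3 had opposite signs in the lines on its 1 probe set, with a log2 difference after siTTF-1 of -0.29 in Lu139 and 0.57 in NCI-H209. SLC25A21 also had opposite signs, -0.0553 in Lu139, where it lay below the expression limit, and 0.0933 in NCI-H209. Each line has 1 array per siRNA, so neither difference between the lines was tested.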

How the results depend on the processing

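All 11 alternatives left 0 probe sets or genes called by limma for siTTF-1. NKX2-1 stayed lower under each. On 211024_s_at the mean log2 difference ran from -1.01 to -0.94, and the mean of both probe sets had -0.83. The limma adjusted p ran from 0.0544 to 1 over these. On 210673_x_at the difference ran from -0.71 to -0.63 (limma adjusted p from 0.0687 to 1, over the 9 alternatives that keep this probe set). The highest adjusted p came without the line term. With the mean of probe sets per gene, 0 members in place of 1 were at least 2-fold changed within NCI-H209. Between the lines 4 probe sets of the region in place of 7 were called with the limit at the 60th percentile, which tested fewer of them. Quantile normalization over the 4 arrays called 35.7% of probe sets higher in Lu139 and 31.2% lower, against 19.2% and 48.8%, with a median difference of 0.05 in place of -0.25. SFTA3 stayed higher in Lu139 (1.60 to 2.09) and SLC25A21 lower, with fitted differences of -2.93 to -2.13 that depend on the pseudocount. With the mean of its probe sets, which had opposite signs, PAX9 had 0.0049 after siTTF-1 in place of -0.09. With arrays scaled to a common median SLC25A21 had -0.0058 in place of 0.02. That scaling also put the median difference of all tested probe sets after siTTF-1 at -0.01 in Lu139, in place of 0.02. In NCI-H209 it was -0.01 in place of 0.01. The cause of the change in SLC25A21 was not tested. Of 80 recomputed siRNA effects 78 kept their direction and side of the threshold, and of 72 line differences 71. The line term pairs the arrays of a line, over 2 pairs, and without it the siRNA effect of each member had an adjusted p of 1. The lack of a background measure limits what can be said of NKX2-8 and PAX9.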

Other observations

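Markers of other cell types were read beside the region. The thyrotropin receptor gene TSHR read 167 after siTTF-1, against 235 with siNTC, in Lu139 on its brightest probe set, and 9.89 against 9.53 in NCI-H209. Thyroglobulin, TG, read 37.9 against 36.4 in Lu139 and 49.4 against 34.4 in NCI-H209, near the expression limit. Of the alveolar type 2 genes, ABCA3, a lipid transporter of surfactant storage, read 522 against 489 in Lu139 and 151 against 179 in NCI-H209, and SFTPB read 225 against 233 and 132 against 131. All 4 alveolar genes were above the limit. After siTTF-1 0 were lower and 2 higher in both lines, against 26.9% and 37.3% of all genes tested. NAPSA read from 55.3 to 69.6, in the range of CD3E and CD14, from which no expression can be read. On their brightest probe sets SFTPB and SFTPC lay in or below the range of the brightest COL1A1 probe set, and whether they are expressed was not tested. The basal gene KRT5 read from 66.7 to 86.9 and KRT14 from 12.1 to 23.0 over the 4 arrays. The fibroblast gene COL1A2 read from 24.9 to 30.7 on its brightest probe set, and PDGFRB from 32.3 to 61.8, while of the 5 probe sets of COL1A1 the brightest read from 259 to 362.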
